A study of Mus musculus with 6 samples.

Results

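The genes examined here were the 4 ErbB receptors (Egfr, Erbb2, Erbb3 and Erbb4) and 6 of their ligands (Areg, Ereg, Hbegf, Tgfa, Nrg1 and Nrg4), 10 of the 21887 protein-coding genes of the mouse gene table. The study sequenced the DNA that came down with Foxa1 or Foxa2 (ChIP-seq) and listed the genomic regions enriched for each factor. A region belonged to a gene when its summit lay inside the gene body, or else when that gene had the nearest end within 100 kb. By this rule 153 of 125037 listed regions belonged to the 10 genes. There were 87 of 54226 regions in the Foxa1 list at 2 weeks, 35 of 35869 in the Foxa1 list at 6 months and 31 of 34942 in the Foxa2 list at 6 months. The Foxa2 list at 2 weeks held 1 region in all, at none of these genes. A region was given to a gene by its place alone, so the target it may regulate is not known.

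The samples were mouse prostate tumor cells of the C57BL/6 strain, with tamoxifen given for 2 weeks or for 6 months, and each of the 6 libraries (Foxa1, Foxa2 and input at each time) was a group of 1. All groups share the strain and the drug. The labels name no genotype, Cre driver or age and no untreated group. Tissue of 3 prostates went into the preparation the protocol describes. Since every group is a single library, differences have no replicates behind them, no test between groups was made, and the lists do not give read depth. Peak lists show occupancy and not expression, so the cell type was checked only loosely. All 6 luminal epithelial markers had a Foxa1 region at 2 weeks and 3 of 6 had one at 6 months, when Hoxb13 and Pbsn were among those with none. Of 4 neuroendocrine markers, 2 had one at 2 weeks and 3 at 6 months, when Chga had 8 after none at 2 weeks. Basal markers went from 2 to 1 of 3, stromal ones from 3 to 2 of 3 and immune ones from 2 to 1 of 2. The part of these shifts in the results was not tested.

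ErbB receptors are tyrosine kinases of the cell surface that pair up when a ligand binds and signal through the Ras-MAP kinase and PI3 kinase pathways. Egfr binds Areg (amphiregulin), Ereg (epiregulin), Hbegf (heparin-binding EGF-like growth factor) and Tgfa (transforming growth factor alpha). Erbb3 and Erbb4 bind neuregulins such as Nrg1, and Nrg4 binds Erbb4. Erbb2 has no known ligand of its own and acts as the preferred partner of the others. Foxa1 and Foxa2 are forkhead pioneer factors, which can bind DNA in closed chromatin. In the prostate Foxa1 is known for its role in luminal cells.

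The start sites of Egfr, Erbb2, Areg and Nrg4 are shown first, because these genes had 5 or more Foxa1 regions at 2 weeks and at most 1 at 6 months. Each sequence gives the 250 bases upstream of the RefSeq start, 5′ to 3′ in the direction of the gene, from build GRCm38.p6, whose coordinates are those of mm10. They lie at chr11:16751953-16752202 (Egfr, plus strand), chr11:98412234-98412483 (Erbb2, plus strand), chr5:91139349-91139598 (Areg, plus strand) and chr9:55283626-55283875 (Nrg4, minus strand). Capitals mark the forkhead core TGTTT or its reverse complement.
Egfr: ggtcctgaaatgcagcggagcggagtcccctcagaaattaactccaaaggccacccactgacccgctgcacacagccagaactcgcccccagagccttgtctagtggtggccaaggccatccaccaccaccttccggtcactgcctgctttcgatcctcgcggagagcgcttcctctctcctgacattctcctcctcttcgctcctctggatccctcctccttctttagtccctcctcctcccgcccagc
Erbb2: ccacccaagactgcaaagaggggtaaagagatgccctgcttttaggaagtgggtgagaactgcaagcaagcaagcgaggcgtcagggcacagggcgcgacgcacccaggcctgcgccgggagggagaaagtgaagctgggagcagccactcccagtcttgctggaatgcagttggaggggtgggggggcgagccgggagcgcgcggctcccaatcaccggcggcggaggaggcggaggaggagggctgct
Areg: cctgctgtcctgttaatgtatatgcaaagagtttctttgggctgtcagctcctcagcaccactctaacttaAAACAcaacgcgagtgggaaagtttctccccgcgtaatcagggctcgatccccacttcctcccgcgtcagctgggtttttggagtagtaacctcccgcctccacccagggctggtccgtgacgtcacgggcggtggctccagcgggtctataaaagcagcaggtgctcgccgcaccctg
Nrg4: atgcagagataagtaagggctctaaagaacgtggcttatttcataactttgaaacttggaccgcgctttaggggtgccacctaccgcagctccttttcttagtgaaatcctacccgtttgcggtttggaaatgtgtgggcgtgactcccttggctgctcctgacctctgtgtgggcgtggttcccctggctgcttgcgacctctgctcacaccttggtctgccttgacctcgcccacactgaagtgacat

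No region of any list overlapped these 4 windows or those of Erbb4 and Tgfa, the other two members with an entry in the promoter table. The nearest Foxa1 summit at 2 weeks lay 2.79 kb downstream of the start in Egfr, 1.43 kb in Erbb2, 1.53 kb in Erbb4 and 11.1 kb in Areg. It lay 1.81 kb upstream in Nrg4 and 6.12 kb upstream in Tgfa. At 6 months the nearest Foxa1 summit was 14.5 kb from the start of Egfr, 14.2 kb from that of Tgfa and 534 kb from that of Erbb4, and the other three had none. Only regions assigned to the gene itself were searched. For Erbb2, Areg and Nrg4, without any 6-month region, the closest summit could only be one of the 2-week list. In Egfr, Erbb4 and Tgfa it was also one of that list, which is the longest of the 3. Egfr was among the genes shown first for their few 6-month regions, so no conclusion about gene starts is drawn. None of the 6 windows held the longer forkhead motif TGTTTAC on either strand, which 3.17% of the 32851 promoter windows of that length hold. None held its variant TATTTAC (2.73% of all windows). The variant TGTTTGC was in none either (4.30%). None held the AP-1 motif TGANTCA, found in 6.75%. The core TGTTT, which is part of TGTTTAC and TGTTTGC, occurred in 1 of the 6, that of Areg, and in 46.4% of all windows. These matches describe letters in a short window and say nothing of the regions themselves, whose sequence was not used here.

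At 2 weeks, Foxa1 regions were listed at 9 of the 10 genes, where 49.6% of all protein-coding genes had at least 1. At 6 months Foxa1 regions were listed at 5 of the 10 (33.8% of all genes), and Foxa2 regions at the same 5 (35.4% of all genes). These were Egfr, Erbb4, Hbegf, Tgfa and Nrg1. The 4 receptors together held 37 Foxa1 regions at 2 weeks, 14 at 6 months and 9 Foxa2 regions, and the 6 ligands held 50, 21 and 22. The median gene of the 10 had 6 Foxa1 regions at 2 weeks, 0.5 at 6 months and 1 Foxa2 region, while the median over all genes was 0 in each list. Counts per gene were not adjusted for gene length, which ran from 8.83 kb (Areg) to 1084 kb (Nrg1) among the members. The part of length in these numbers was not tested. Of the Foxa1 regions at 2 weeks, 62 lay inside a member's gene body and 25 outside. At 6 months these numbers were 24 and 11 for Foxa1 and 21 and 10 for Foxa2. The share inside gene bodies was 71.3%, 68.6% and 67.7% in the 3 lists, against 63.4%, 66.6% and 66.5% of all assigned regions.

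**Figure D1:**
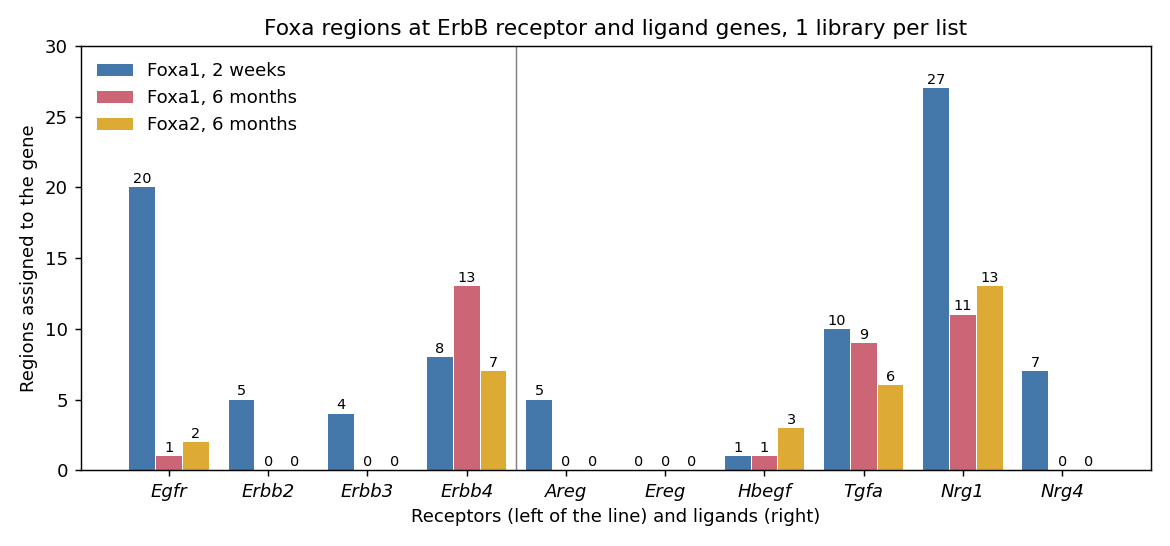
Number of regions assigned to each ErbB receptor or ligand gene (vertical axis) in the Foxa1 list at 2 weeks and the Foxa1 and Foxa2 lists at 6 months, 1 library each, so without error bars. Egfr has 20, 1 and 2, Nrg1 27, 11 and 13, and Erbb2, Erbb3, Areg and Nrg4 have regions at 2 weeks only.

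The first comparison asked at which of these genes Foxa1 occupancy differed between 2 weeks and 6 months. A gene was counted as different when one list held at least 2 times as many of its regions as the other and at least 3 more. By this rule 6 of the 10 genes held fewer Foxa1 regions at 6 months (Egfr, Erbb2, Erbb3, Areg, Nrg1 and Nrg4), where 13.2% of all genes did, and none held more, where 3.76% did. A gene could be counted as lower only with at least 3 regions at 2 weeks, which most members had. Among all genes with that many, 53.4% were lower, against 6 of the 8 such members, and 5.22% were higher, against none of the 8. With the lists limited to equal length, at the 34942 strongest regions, 4 members were lower (Egfr, Erbb3, Areg and Nrg4) against 6.81% of all genes, and Erbb4 was higher against 5.67%.

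The members with fewer Foxa1 regions at 6 months numbered 4 or 5 under the other ways of counting as well. With a -log10 q of at least 5 there were 5, against 10.4% of all genes. With regions closer than 1 kb merged there were 5, against 12.3%. Inside gene bodies alone there were 4, against 8.25%, and with 10 kb added to either side 5, against 12.5%. These shares are over all genes, also those with too few regions at 2 weeks to be counted as lower. The share among genes with at least 3 regions at 2 weeks was not computed for these settings or for lists of equal length. No member held more at 6 months in these 4 settings, where 1.33%, 1.54%, 2.89% and 3.78% of all genes did. Egfr and Nrg4 were the members counted as lower in every setting.

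Among genes with at least 4 Foxa1 regions at 2 weeks, absence from both 6-month lists was found for 4 of 8 members (Erbb2, Erbb3, Areg and Nrg4) and for 13.9% of the 4123 such genes. That minimum of 4 was chosen after the values were seen. With 10 kb to either side counted, Erbb2 was no longer absent at 6 months. Whether such places lay just under the threshold of the lists was not tested.

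Egfr, the receptor of epidermal growth factor (chromosome 11, 16752203 to 16913907, mm10), had 20 Foxa1 regions at 2 weeks, 1 Foxa1 region at 6 months and 2 Foxa2 regions. Of the 20, 15 lay inside the gene body and 5 upstream of it, over a stretch of 191 kb. Their fold enrichment, the authors' ratio at the summit over local background, ranged from 2.1 to 15.4. The strongest lay 14.8 kb upstream of the start (16736280 to 16738785; fold 15.4, -log10 q 86.1) and ranked 101st of the 54226 regions of its list. It was also the only one listed again at 6 months. The single 6-month Foxa1 region (16737340 to 16738006; fold 3.73, -log10 q 5.10) lay inside it, as did both Foxa2 regions (16737271 to 16737470, fold 3.34, and 16737656 to 16737859, fold 3.5). No 6-month region of either factor lay inside the Egfr gene body, where the strongest 2-week region stood 105 kb downstream of the start (16856835 to 16858190; fold 10.1). The 6-month Foxa1 region was stronger than 58.0% of its own list, and the 2-week region at the same place was stronger than 99.8% of its list. The 2 Foxa2 regions were stronger than 22.6% and 40.7% of theirs. With a -log10 q of at least 5, Egfr had 0 Foxa2 regions.

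The deficit of 19 at Egfr was matched or exceeded by 87 genes including Egfr itself, 0.397% of all. Of the 287 genes with at least 20 Foxa1 regions at 2 weeks, 10 (3.48%) had at most 1 at 6 months, a description whose limits were taken from Egfr's own counts. Egfr remained counted as lower under each of the 5 other ways of counting tried. It had 13 regions and 1 with lists of equal length, and 16 and 1 after merging regions closer than 1 kb.

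Erbb2, the ligandless partner receptor (chromosome 11, 98412484 to 98437716), had 5 Foxa1 regions at 2 weeks and none in either 6-month list. With every region within 10 kb of the gene counted, also those nearer to another gene, it had 7 Foxa1 regions at 2 weeks, 3 Foxa1 regions at 6 months and 2 Foxa2 regions. The 5 all lay inside the gene within 5.51 kb of each other, with summits 1.43 to 6.85 kb downstream of the start. The strongest (98415273 to 98416995) had a fold enrichment of 6.85 and was stronger than 85.4% of its list. The other four had a fold of 2.43 to 3.15. The 5 regions formed 2 when those less than 1 kb apart were joined, and 2 were kept in lists of equal length, so Erbb2 was no longer counted as lower in either case. Just beyond the far end of Erbb2, the neighbours Mien1 and Grb7, which share part of their span, did not lack regions at 6 months. Mien1 had 3 Foxa1 regions at 2 weeks, 6 Foxa1 regions at 6 months and 5 Foxa2 regions, and Grb7 had 2, 4 and 3. A summit in the shared part counts for both genes, so these numbers can include the same regions.

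Erbb3, which binds neuregulins but has a weak kinase (chromosome 10, 128567523 to 128589635), had 4 Foxa1 regions at 2 weeks and none at 6 months. A single one lay inside the gene, 0.741 kb from its lower end (128567897 to 128568380; fold 5.84). The other three stood together 9.06 to 13.0 kb beyond the upper end. The strongest of these (128597862 to 128599013; fold 11.2, -log10 q 40.8) was stronger than 96.2% of the list and had no counterpart at 6 months. Counted inside the gene body alone, Erbb3 had 1 region and 0.

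Erbb4, the other neuregulin receptor (chromosome 1, 68031884 to 69108576, minus strand), was the 1 receptor with more Foxa1 regions at 6 months, 13 against 8, with 7 Foxa2 regions. These counts did not meet the rule for a difference. With lists of equal length they were 13 and 3, which did. Joining regions less than 1 kb apart gave 8 at 6 months and 7 at 2 weeks. No region assigned to Erbb4 within the 100 kb limit was listed at both times, for either factor.

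The positions of the Erbb4 regions hardly overlapped. Of the 13 Foxa1 regions at 6 months, 10 lay at lower coordinates than every 2-week region of the gene, around its far (3′) end. Of these, 6 stood in a group of 17.3 kb outside the gene (67967249 to 67984509) and 4 within 4.33 kb inside it (68047315 to 68051645). Conversely 7 of the 8 regions of 2 weeks lay at higher coordinates than every 6-month Foxa1 region, towards and beyond the start. The strongest Erbb4 region was at the 3′ end in both 6-month lists, for Foxa1 at 68049597 to 68050600 (fold 6.99, stronger than 93.6% of its list) and for Foxa2 at 68049361 to 68050264 (fold 7.92, 94.8%). Their summits were at 68049936 and 68049941. At 2 weeks the strongest stood in the middle of the gene (68674402 to 68675057; fold 6.54, stronger than 80.3%). Of the 7 Foxa2 regions, 3 overlapped a Foxa1 region of the same time.

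Among the ligands of Egfr, Areg (chromosome 5, 91139599 to 91148432) had 5 Foxa1 regions at 2 weeks and none at 6 months. All 5 summits lay downstream of the gene. The strongest (91148376 to 91151511; fold 13.9, -log10 q 57.0) had its summit 2.29 kb beyond the gene end and was stronger than 98.6% of the list. A second strong region stood 88.7 kb beyond the gene end (91236367 to 91237353; fold 10.2), and the folds of the other three were 1.98, 3.01 and 4.05. With gene bodies alone, Areg had no region at either time, and within 10 kb of the gene it had 1 and 0. Ereg, which lies beside Areg (chromosome 5, 91074617 to 91093649), had no region in any list. Btc, a ligand of Egfr and Erbb4 on the other side of Areg, had 8 Foxa1 regions at 2 weeks and 0 at 6 months. Beyond Btc, Parm1 had 17 and 1 and the next gene, Rchy1, had 7 and 1.

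Hbegf, a membrane-bound ligand released by proteases (chromosome 18, 36504927 to 36515805), had 1 Foxa1 region at each time and 3 Foxa2 regions. The 2-week Foxa1 region (36504419 to 36504717; fold 4.42) lay 0.4 kb outside the lower end of the gene. It overlapped a Foxa2 region of 6 months (36504469 to 36504773; fold 3.06) but no Foxa1 region of that time. The 6-month Foxa1 region (36498485 to 36498655; fold 3.29) lay 6.33 kb away and overlapped another Foxa2 region (36498253 to 36498848; fold 3.99). The third Foxa2 region (36505456 to 36505638; fold 2.58) was inside the gene and stood alone.

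Tgfa, another ligand of Egfr (chromosome 6, 86195038 to 86275744), held nearly the same number of Foxa1 regions at both times, 10 and 9, with 6 Foxa2 regions. With lists of equal length the Foxa1 counts were 6 and 9, which did not meet the rule. In the full lists, 2 of the 10 regions at 2 weeks and 3 of the 9 at 6 months overlapped a Foxa1 region of the other time. Both shared sites lay inside the gene. At the first, the Foxa1 region had a fold of 3.86 at 2 weeks (86209084 to 86209902) and 5.66 at 6 months (86209008 to 86210093). A single broad Foxa2 region (86209098 to 86211696; fold 3.17) covered it together with the next Foxa1 region. At the second, the 2-week region (86233152 to 86234990; fold 10.6, stronger than 95.5% of its list) overlapped 2 Foxa1 regions at 6 months, with folds of 3.28 and 4.03, and a Foxa2 region (86233551 to 86234882; fold 4.19).

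Outside the Tgfa gene body the sides differed. At 2 weeks 4 Foxa1 regions lay before the lower end, within 18.0 kb of it, and none beyond the upper end. At 6 months 3 Foxa1 and 3 Foxa2 regions lay beyond the upper end, which is downstream, and none before the lower end. The strongest of the downstream group had a fold of 5.09 for Foxa1 (86282863 to 86283321) and 5.50 for Foxa2 (86282708 to 86283698).

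Nrg1, the main neuregulin (chromosome 8, 31807452 to 32891609), had more Foxa1 regions than any other member at 2 weeks, 27, with 11 at 6 months and 13 Foxa2 regions. As at Erbb4, most regions of the 2 times occupied different stretches of a gene of 1084 kb. Of the 27 regions at 2 weeks, 22 lay at lower coordinates than every 6-month region of the gene. The longest stretch between neighbouring 2-week regions, 227 kb from 32268431 to 32495648, held 9 of the 11 Foxa1 and 8 of the 13 Foxa2 regions of 6 months. With lists of equal length the counts were 14 and 11, so Nrg1 was then not counted as lower.

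Within that stretch, 6 Foxa1 regions stood in 13.7 kb (32299904 to 32313611), and 6 Foxa2 regions in 14.3 kb (32299677 to 32313953). Each group held the strongest member region of its list. For Foxa1 (32299904 to 32302463) it had a fold of 11.1 and a -log10 q of 44.2, and ranked 367th of 35869. For Foxa2 (32300485 to 32302411) it had a fold of 11.3 and a -log10 q of 36.9, and ranked 338th of 34942. The summits of the 2 factors were at 32301421 and 32301409. The strongest Nrg1 region at 2 weeks (32005054 to 32006336; fold 8.88, stronger than 93.1% of its list) lay about 198 kb inside the lower end, where neither factor was listed at 6 months.

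A pair of Nrg1 sites was present in all 3 lists. At the first (32495649 to 32496058 at 2 weeks) the fold was 3.86 for Foxa1 at 2 weeks, 5.02 for Foxa1 at 6 months and 5.84 for Foxa2. At the second (32614959 to 32615583 at 2 weeks) these values were 4.30, 3.88 and 3.75. Fold enrichment was not compared between libraries, and within each list these sites ranked in the middle or upper part. The first was stronger than 40.4%, 83.5% and 85.6% of the 3 lists, and the second stronger than 64.2%, 63.8% and 43.6%.

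Nrg4, a ligand of Erbb4 (chromosome 9, 55220222 to 55283654, minus strand), had 7 Foxa1 regions at 2 weeks and none at 6 months. These formed 1 group of 53.0 kb (55244029 to 55297010), with 3 regions inside the gene and 4 upstream of its start. Of the 7, 3 were in the strongest 10% of the 2-week list, more than at any other member. They were a region 6.31 kb upstream of the start (55289349 to 55290978; fold 12.3, -log10 q 47.6), one 10.9 kb upstream (55293637 to 55295012; fold 9.51) and one 18.7 kb downstream inside the gene (55264261 to 55265679; fold 10.7). None overlapped a region of either 6-month list. Nrg4 was counted as lower under all 5 other ways of counting, as was Egfr.

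**Figure D2:**
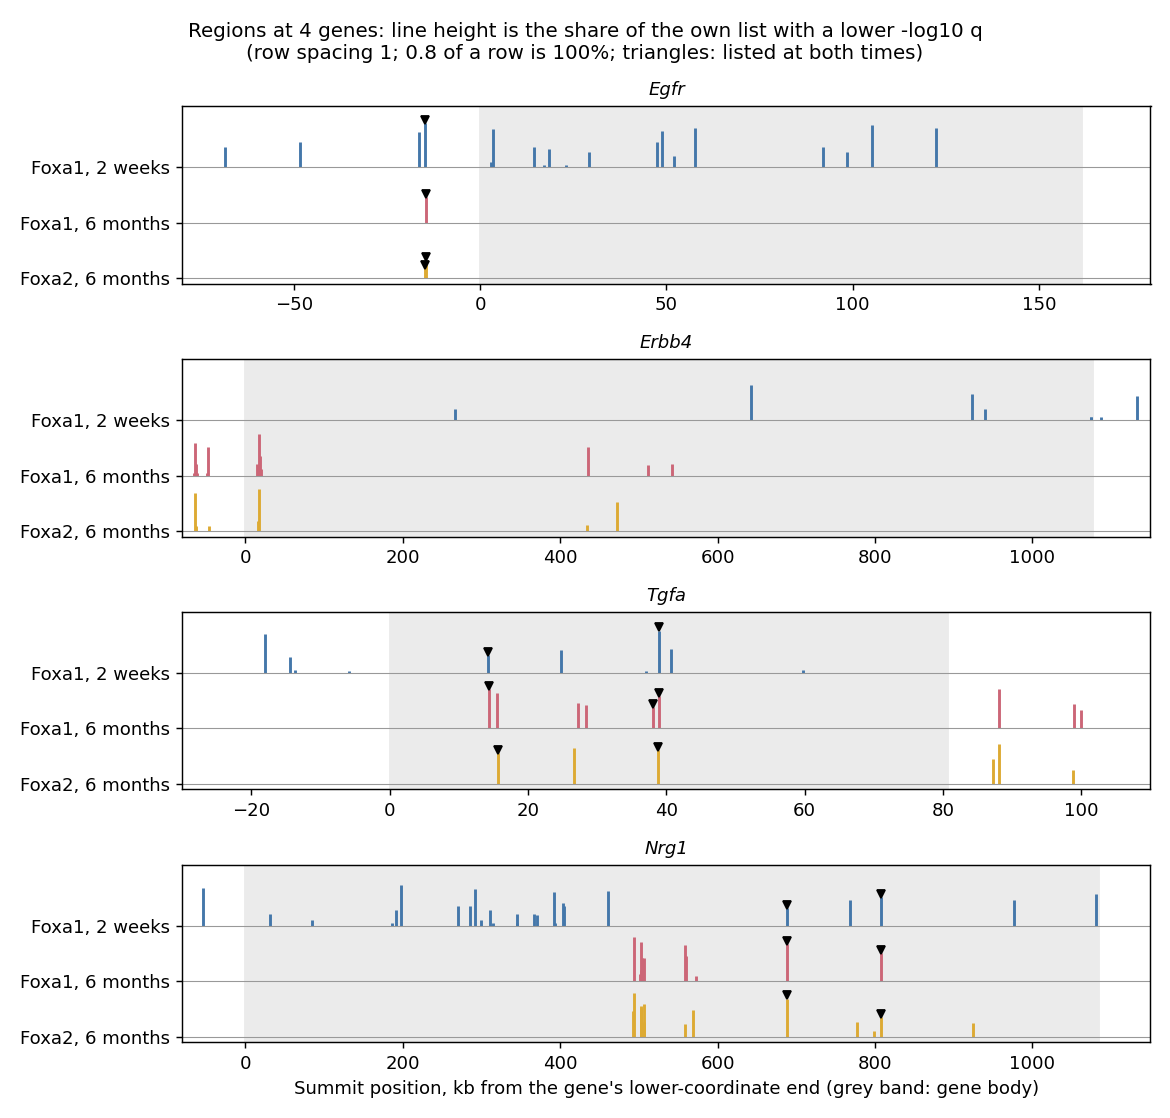
Summit positions at Egfr, Erbb4, Tgfa and Nrg1 in kb from the gene's lower-coordinate end (horizontal axis; the grey band is the gene body), with 1 row per list. Line height is the share of the own list with a lower -log10 q, and triangles mark regions listed at both times, 1 library each. At Nrg1 the lines of the 6-month lists begin beyond 22 of the 27 lines of 2 weeks, and at Erbb4 no line has a triangle.

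Few regions of these genes were listed at both times. Of the 87 Foxa1 regions at 2 weeks, 5 overlapped a Foxa1 region at 6 months by at least 1 bp, 5.75% (exact Clopper-Pearson 95% interval 1.89 to 12.9%), against 21.8% of the whole list. They were 2 at Tgfa, 2 at Nrg1 and 1 at Egfr. Of the 35 Foxa1 regions at 6 months, 6 overlapped a 2-week region, 17.1% (6.56 to 33.6%), against 35.1% of the whole list. With a -log10 q of at least 5 both gaps were narrower. The 2-week share was then 10% (5 of 50) against 18.3%, and the 6-month share 33.3% (5 of 15) against 39.2%. With lists of equal length they were 9.62% against 26.2% and 17.1% against 29.6%. The intervals cover counting error only, and regions of 1 gene are not independent of each other. In the strongest 10% of the 2-week list, 2 of 10 member regions recurred (20%, 2.52 to 55.6%), against 48.3% of all such regions, and the interval of this share includes that value. In the other 90% of the list 3 of 77 recurred, 3.90% (0.811 to 11%), against 18.9%. The 8 strong regions at 2 weeks that were not listed again belonged to Nrg4 (3), Areg (2), Egfr, Erbb3 and Nrg1.

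**Figure D3:**
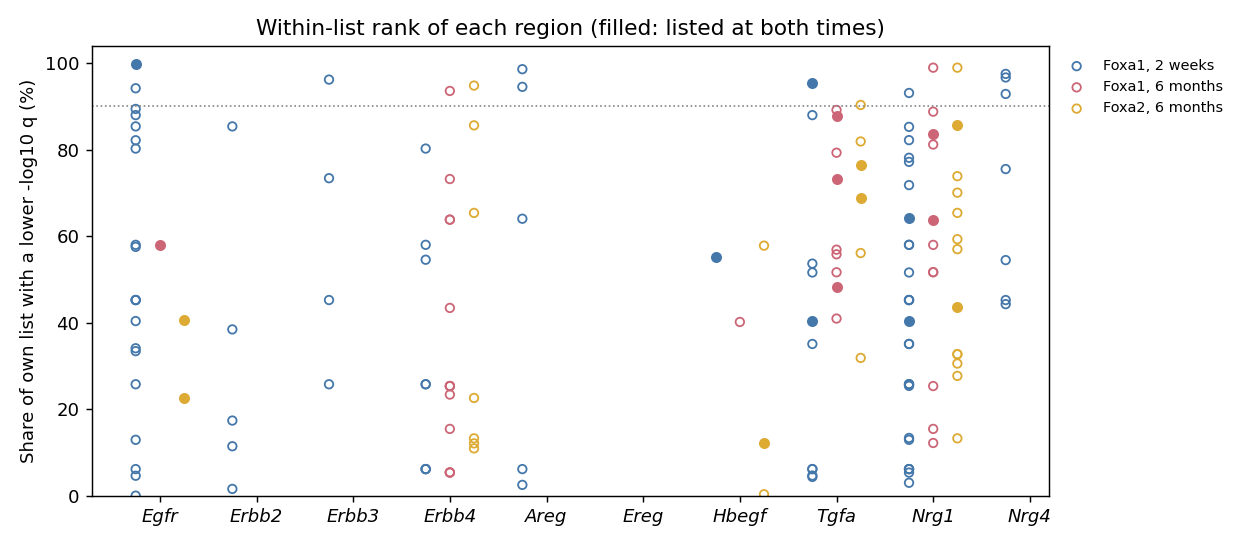
Rank of every region within its own list, as the percent of that list with a lower -log10 q (vertical axis), by gene and list, 1 library each. Filled points are regions that overlap a region of the other time (for 2 weeks, of either factor), and points above the dotted line are in the strongest 10%. All 7 Nrg4 points, all 5 Areg points and all 4 Erbb3 points are open.

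Foxa1 and Foxa2 were then compared at 6 months, with the same 6-month Foxa1 library as in the comparison of times. By the same rule none of the 10 genes held fewer Foxa2 than Foxa1 regions, where 1.03% of all genes did, and none held more, where 0.827% did. Side by side, the Foxa1 and Foxa2 counts were 1 and 2 at Egfr, 13 and 7 at Erbb4, 1 and 3 at Hbegf, 9 and 6 at Tgfa and 11 and 13 at Nrg1. Of the 31 Foxa2 regions, 19 overlapped a Foxa1 region, 61.3% (42.2 to 78.2%), against 69.7% of the whole list. Of the 35 Foxa1 regions, 18 overlapped a Foxa2 region, 51.4% (34.0 to 68.6%), against 63.4%. Both intervals include the value of the whole list.

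At Erbb4 the difference of 13 and 7 came with close spacing. With regions less than 1 kb apart joined, Erbb4 had 8 Foxa1 and 7 Foxa2 regions. Tgfa then had 5 and 5, whereas inside its gene body alone it had 6 and 3, which met the rule. In that setting 0.79% of all genes held fewer Foxa2 regions and 0.512% held more, and with 10 kb added to either side 0.768% held more, none of the 10 among them. The genes without a Foxa1 region at 6 months (Erbb2, Erbb3, Areg, Ereg and Nrg4) were also without a Foxa2 region. Of the 31 Foxa2 regions, 7 lay where Foxa1 had been listed at 2 weeks, 22.6% (9.59 to 41.1%), against 36.8% of the whole list, and that interval includes this value.

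Regions beyond the 100 kb limit were few. The farthest one included was that of Areg at 88.7 kb. The nearest one left out was a 2-week Foxa1 region 101.8 kb beyond the start-side end of Erbb4 (69209470 to 69211348; fold 10.6), followed by 4 at 114 to 116 kb upstream of Egfr, with folds of 2.37 to 11.1. In all, 6 Foxa1 regions at 2 weeks, 3 Foxa1 regions at 6 months and 2 Foxa2 regions had a member as the nearest gene but lay beyond the limit. Among them was a place near Erbb4 listed for Foxa1 at both times, 241 kb beyond its lower end. There the 2-week region (67790810 to 67791135, fold 3.75) lay inside the 6-month one (67790744 to 67791361, fold 5.24).

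The rest of the pathway was read from a list of 37 genes. It held 5 other ligands, 2 sheddases that release ligands from the membrane, 19 adaptors and kinases and 11 inhibitors. Fewer Foxa1 regions at 6 months were found at 17 of the 37 and more at 2 (background 13.2% and 3.76%), and none differed between Foxa1 and Foxa2. Of the 22 with at least 3 regions at 2 weeks, 17 held fewer, where the background was 53.4%. The median gene of the list had 3 Foxa1 regions at 2 weeks, 1 at 6 months and 1 Foxa2 region. With lists of equal length 9 held fewer (background 6.81%) and 2 held more (5.67%).

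The inhibitors carried the largest numbers, with 113 Foxa1 regions at 2 weeks, 47 at 6 months and 47 Foxa2 regions at the 11 genes. Of the 11 inhibitors, 8 held fewer at 6 months (background 13.2% of all genes) and 1 held more (3.76%). Their median at 2 weeks was 11 Foxa1 regions. Among all genes with at least 3 at 2 weeks, 53.4% held fewer and 5.22% more. Spred1, an inhibitor of Ras-MAP kinase signalling, had 16 Foxa1 regions at 2 weeks, 0 at 6 months and 0 Foxa2 regions. Cblb, a ubiquitin ligase of the family that marks active receptors for degradation, had 14, 1 and 2. Spry1, a feedback inhibitor of receptor kinases, had 11, 0 and 1, and Errfi1, which binds and blocks the Egfr kinase, had 19, 8 and 11. The inhibitor with more regions was Lrig1, a membrane protein that lowers receptor levels, with 8, 20 and 16. Joining regions less than 1 kb apart ended that call.

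Of the other ligands, Egf, the founding ligand of Egfr, had 7, 1 and 1, and Btc had 8, 0 and 0. Nrg3, a ligand of Erbb4, went the other way with 1 Foxa1 region at 2 weeks, 20 at 6 months and 28 Foxa2 regions. It was counted as higher under each of the 5 other ways of counting. Of the 19 adaptors and kinases 6 held fewer at 6 months, among them Gab1, a docking protein (16, 7 and 6), and none held more. The background was 13.2% and 3.76% of all genes, and 53.4% and 5.22% of those with at least 3 regions at 2 weeks. Between the factors the largest differences were at Nrg3 (20 Foxa1 and 28 Foxa2 regions), Errfi1 (8 and 11) and Lrig1 (20 and 16).

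**Figure D4:**
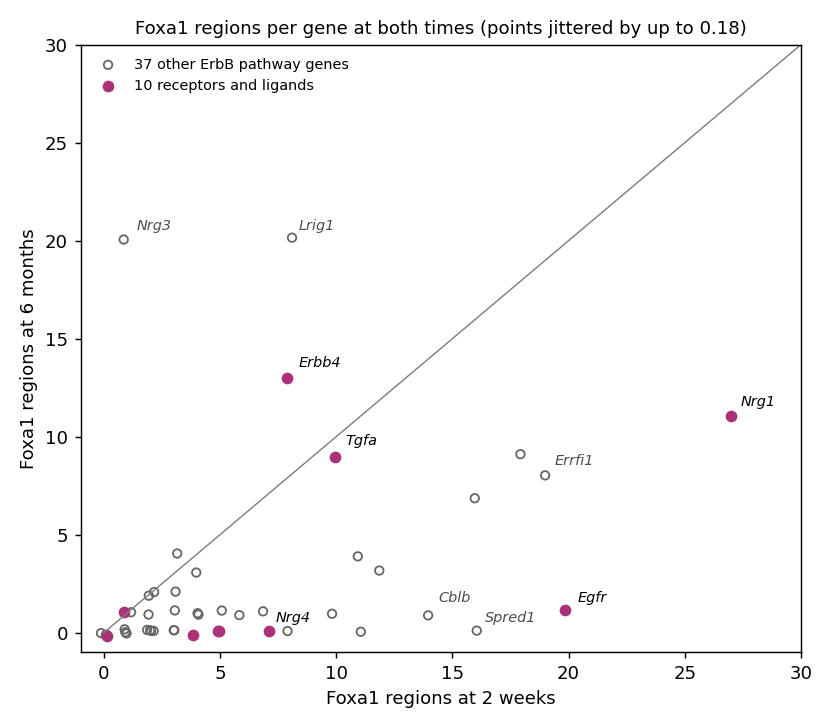
Foxa1 regions per gene at 2 weeks (horizontal axis) and at 6 months (vertical axis), 1 library each, for the 10 receptors and ligands (filled) and the 37 other pathway genes (open). The line marks equal numbers, and points are jittered. Nrg3, Lrig1 and Erbb4 lie farthest above the line, and Egfr (20 and 1) and Spred1 (16 and 0) lie far below it.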

How the data were processed

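The submitters' processing notes name MACS2 2.1.1, HOMER, Bowtie2, Trim Galore 0.5.0, bedtools 2.25.0, DiffBind 2.12.0 and deepTools 3.2.1, and the build mm10. No source used here says what each did or whether input served as control. The deposited files follow MACS2's narrowPeak layout, with 1 library per file. The authors' fold enrichment (a ratio), their -log10 p-value and -log10 q-value are values of each peak. The deposited score is 10 times the -log10 q, cut to a whole number. The lists reach down to a q-value of 0.05. Input libraries were not analysed here.

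Peaks on unplaced or unlocalized contigs were left out (12, 2 and 3 peaks of the 3 long lists). Genes came from a RefSeq table of GRCm38.p6 without strand or exons, so exons and introns were not distinguished; strand was known for the 6 members in the RefSeq promoter table. A summit inside several genes counted for each. Strength was compared within a list, as the percent of its regions with a lower -log10 q. The members, gene lists and thresholds were chosen with earlier results of these data known. All 10 members are described, with their strongest regions and regions shared by all lists, and of the 37 pathway genes mainly those with the largest differences. The core TGTTT was added after the windows were read. Python 3.11.15, numpy 2.4.6, pandas 2.3.3, scipy 1.17.1 and matplotlib 3.10.9 were used. Overlap counts equalled those of bedtools 2.31.1. For regions drawn at random from the 2-week Foxa1 list, 2000 of 2000 gene assignments matched a direct search.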

Additional observations from a re-analysis of the deposited data

How the results depend on the processing

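The counts were repeated with lists of equal length, with a -log10 q of at least 5, with regions less than 1 kb apart joined, with gene bodies alone and with gene bodies and 10 kb to either side. With equal length the 2-week Foxa1 list held 52 member regions (21 at receptors, 31 at ligands), 1 member held more Foxa1 regions at 6 months, and 9 pathway genes held fewer. With a -log10 q of at least 5, member regions numbered 50, 15 and 15 in the Foxa1 list at 2 weeks, the Foxa1 list at 6 months and the Foxa2 list, with 20, 5 and 3 at receptors and 30, 10 and 12 at ligands. With close regions joined, the 6-month Foxa1 list held 22 member regions (9 at receptors, 13 at ligands) and 1 pathway gene held more at 6 months. With gene bodies alone, receptors held 7 Foxa1 and 4 Foxa2 regions at 6 months, 10 pathway genes held fewer Foxa1 regions at 6 months, 1 member (Tgfa) held fewer Foxa2 than Foxa1 regions, and 1 pathway gene (Akt1) held more. With 10 kb to either side, 1 pathway gene (Errfi1) held more Foxa2 than Foxa1 regions. The number of members with fewer Foxa1 regions at 6 months was 4 or 5 under these alternatives, against 6; Areg was not among them with gene bodies or with 10 kb to either side, Erbb2 with equal length, a -log10 q of at least 5 or joining, Erbb3 with gene bodies and Nrg1 with equal length. When overlap had to cover 50% of both regions, 5.71% of the Foxa1 member regions at 6 months overlapped a 2-week region and 28.6% a Foxa2 region, and 32.3% of the Foxa2 member regions overlapped a Foxa1 region, where the whole lists gave 14.5%, 41.0% and 42.1%. A stricter overlap finds fewer shared regions by construction, and the cause of the other changes was not tested. The other 82 values of such counts and shares stayed within 1.5 times the reported count or within the interval of the reported share, and no call reversed. No paired analysis was possible because each group holds 1 library. Differences in depth between the libraries cannot be told apart from differences in occupancy.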
